A study of Mus musculus with 5 samples.

Results

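The genes that encode ribosomal proteins were followed in condylar cartilage of the lower jaw, which covers the bone end that forms the jaw joint, in mice with and without discoidin domain receptor 1. Members were the genes whose symbol begins Rpl, Rps, Rplp, Mrpl or Mrps followed by a digit, leaving out pseudogenes named with -ps and the Rps6k kinases. Only array rows with exactly 1 gene symbol counted, and a gene was read from its brightest row on average over the 5 arrays. This gave 139 of the 19938 genes tested, 62 with names of cytosolic and 77 with names of mitochondrial ribosomal proteins. Of the cytosolic names, 9 belong to paralogs or to genes that only carry the name, such as Rps19bp1 and Rps23rg1. A further 21 symbols of this kind stood only in rows shared with other genes and were not analysed here.

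Total RNA of strain 129/Sv mice was measured on 5 arrays, 2 of the DDR-1-KO genotype (knockout 2 and 5) and 3 wild type (wild type 3, 4 and 6). Both groups share the strain and the tissue, each array is labelled with a mouse of its own, and 300 ng of RNA was labelled per array. The labels give no knockout construct, age or sex. The array names carry 2 dates, 1 shared by knockout 2 and wild type 3 and 1 by the other 3 arrays. What the date marks is not stated, and the sets of equal date are called run 1 and run 2 here. The question was which transcripts of this cartilage differ without the receptor. Values are log2 RMA signals, and a change is knockout minus wild type on that scale.

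A ribosome is built from a small subunit, which reads the messenger RNA, and a large subunit, which joins the amino acids. The cytosolic ribosome translates nearly all genes, and its protein genes are highly and jointly expressed, often from messages that begin with a run of C and T bases through which growth signals act. The mitochondrial ribosome has its own set of proteins, all encoded in the nucleus, and translates the few messages of the mitochondrial genome, which encode respiratory chain subunits. Chondrocytes secrete large amounts of matrix protein.

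Some facts of the whole series bear on every value. Ddr1 was at 5.96 and 5.80 in knockout 2 and 5 and at 6.02 in each wild-type mouse (change -0.14, SE 0.058, limma adjusted p = 0.377), so it does not check the labels. Gene values spread less within the knockout arrays, with a standard deviation of 0.802 in knockout 2 and 0.906 in knockout 5 versus 0.991 to 1.02 in wild type. With that, genes of high signal tended to be lower in knockout and genes of low signal higher. When genes were ranked by mean signal and cut into 10 equal classes, the median change was -0.23 in the class of highest and 0.39 in that of lowest signal. The class of highest signal held 25 of the 62 cytosolic and 14 of the 77 mitochondrial genes. In 72.6% of the cytosolic and 83.1% of the mitochondrial genes at least 2 of the 5 arrays had exactly the same value, against 87.3% of all genes. The median polish behind RMA can return such identical values, so a spread of 0 is not a measured spread between mice. Of 16 measured cartilage markers, 14 had changes below 0 where 51.1% of all genes did. In limma 3 (Sox9, Col9a3 and Comp) fell, where 2.18% of all genes fell and 1.55% rose. The mean signal of the 16 markers was 5.64 and 5.91 in knockout 2 and 5 versus 5.997 to 6.04 in wild type. The mean signal of 9 muscle markers was 5.43 and 5.54 against 5.70 to 5.82, and that of 10 marrow and leukocyte markers was 5.20 and 5.28 against 4.97 to 5.02. For 8 bone markers it was 5.71 and 5.999 against 5.98, for 5 adipocyte markers 5.03 and 5.21 against 5.08 to 5.20, for 4 nerve markers 4.50 and 4.29 against 4.33, and for 6 vascular markers 5.26 and 5.28 against 5.41 to 5.50. Among these other lists the muscle gene Pygm (-0.62), the adipocyte gene Cidec (-1.01) and the nerve gene Nefl (-0.62) fell in limma. The nerve gene Cdh19 (0.50) rose, and there were no calls in the bone, marrow and vascular lists. None of the marker genes called, cartilage included, passed after cyclic loess or with the run as a block. After cyclic loess Cdh19 was at 0.069 (limma adjusted p = 0.661), while the falls ranged from -0.86 (Cidec) to -0.22 (Comp). No call of detection was used, so no marker can be called absent, and the part of these shifts in the results was not tested. In whole tissue, fewer cells of a type and less RNA per cell cannot be told apart.

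Of the 139 genes, 3 fell and 0 rose in knockout cartilage at an adjusted p under 0.05 in limma. Over all 19938 genes 2.18% fell and 1.55% rose (3.73% in either direction), so the members' share of calls, 2.16%, was near the background. At an unadjusted p under 0.05 there were 26 members, 18.7% of them, against 18.2% of all genes. The 3 falls were those of Rps20 and Rps19bp1 among cytosolic names and Mrpl58 among mitochondrial ones.

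Rps20, a protein of the head of the small subunit, was at 5.53 in knockout 2, 5.55 in knockout 5 and 5.72 in each of the 3 wild-type mice. Both knockout values lay below wild type, by a small and nearly equal amount. The change was -0.18 (SE 0.017, limma adjusted p = 0.0315), and since the wild-type values were identical, this SE came from the knockout pair and the moderation in limma. It was -0.046 after cyclic loess between the arrays (adjusted p = 0.664), so this fall was lost with the scaling.

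Rps19bp1 encodes a nucleolar partner of Rps19 and of the deacetylase Sirt1, and is not itself a subunit of the mature ribosome. Its values were 6.201 and 6.201 in knockout 2 and 5 and 7.01, 7.04 and 6.87 in wild type 3, 4 and 6. The groups were well apart and the knockout arrays all but equal. The change was -0.77 (SE 0.065, limma adjusted p = 0.0287), and it kept -0.52 after cyclic loess without passing (adjusted p = 0.0939).

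Mrpl58, which as Ict1 is a peptidyl-tRNA hydrolase built into the mitochondrial large subunit, releases chains from stalled ribosomes. It was at 6.09 and 6.28 in knockout and at 7.03, 7.24 and 7.03 in wild type. All wild-type values were above both knockout values. The change was -0.91 (SE 0.106, limma adjusted p = 0.0447), and -0.66 after cyclic loess (adjusted p = 0.0637). None of the 3 passed when the run was fitted as a block (adjusted p = 0.0822 for Rps20, 0.0789 for Rps19bp1 and 0.0826 for Mrpl58), and none passed with wild type 3, 4 or 6 left out.

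Promoter sequences from RefSeq (GRCm38.p6) were matched for 118 of the 139 genes, 50 cytosolic and 68 mitochondrial, from 250 bases before to 50 bases after the first listed start. Rps20 had no entry. The stretches shown run from 60 bases before to 10 bases after the start on the strand of the gene. They show where the motifs counted next lie near the start, in Mrpl58, in genes with large changes or low p and, for the YY1 core, in Mrpl36. The motif, on either strand, or the run of C and T bases is in capitals. CCGGAAG stands in Mrpl58, Mrpl34 and Rps21, the NRF1 core in Mrpl32, the YY1 core in Mrpl36, a palindrome in Rps28 and Rps19, and a run of C and T bases in Rpl28 and Rps9.
Mrpl58 (chr11:115403692-115403761, + strand): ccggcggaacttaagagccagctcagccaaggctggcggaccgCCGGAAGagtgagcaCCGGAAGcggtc
Mrpl34 (chr8:71464866-71464935, + strand): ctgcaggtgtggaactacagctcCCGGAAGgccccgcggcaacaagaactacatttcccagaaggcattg
Rps21 (chr2:180257319-180257388, + strand): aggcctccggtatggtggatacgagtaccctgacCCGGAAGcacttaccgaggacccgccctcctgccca
Mrpl32 (chr13:14613028-14613097, - strand): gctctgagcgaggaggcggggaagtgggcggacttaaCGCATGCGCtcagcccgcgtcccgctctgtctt
Mrpl36 (chr13:73330949-73331018, + strand): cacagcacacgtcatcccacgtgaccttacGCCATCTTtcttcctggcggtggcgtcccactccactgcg
Rps28 (chr17:33824553-33824622, - strand): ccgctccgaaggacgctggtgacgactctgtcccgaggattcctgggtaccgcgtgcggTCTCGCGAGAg
Rps19 (chr7:24884532-24884601, + strand): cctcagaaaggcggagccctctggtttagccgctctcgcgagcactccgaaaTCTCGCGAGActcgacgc
Rpl28 (chr7:4792905-4792974, + strand): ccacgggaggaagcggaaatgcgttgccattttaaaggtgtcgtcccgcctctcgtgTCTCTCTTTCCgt
Rps9 (chr7:3703981-3704050, + strand): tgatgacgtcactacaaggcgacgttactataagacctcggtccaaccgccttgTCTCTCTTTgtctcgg

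Each motif was searched on both strands, and matches of different motifs may overlap. CCGGAAG, the core bound by ETS factors, was in 34% of the cytosolic and 35.3% of the mitochondrial promoters, against 9.12% of all 27025 promoters in the table and 12.5% of the genes tested that had a promoter. AAGATGGC, a YY1 core, was in 17.6% of the mitochondrial promoters (95% Wilson interval 10.4% to 28.4%), 4% of the cytosolic and 2.88% of all. GCGCATGCG, an NRF1 core, was in 10.3% of the mitochondrial, 4% of the cytosolic and 1.81% of all. A palindrome of 10 bases like that bound by ZBTB33, shown in capitals for Rps28 and Rps19, was in 10% of the cytosolic (interval 4.35% to 21.4%), 1.47% of the mitochondrial and 0.496% of all. TATAAA was in 10% and 5.88% of the cytosolic and mitochondrial promoters and 14.2% of all, and CCAAT in 28%, 38.2% and 37.9%. A run of at least 8 C and T bases between 10 bases before and 15 after the start was in 26% of the cytosolic promoters (interval 15.9% to 39.6%), 7.35% of the mitochondrial and 9.41% of all. Among the genes tested that had a promoter, the YY1 core was in 3.43%, the NRF1 core in 2.62% and the palindrome in 0.781%. TATAAA was in 12.1% of them, CCAAT in 38.2% and the run in 9.16%. The median share of G and C bases was 52.7% in all promoters and 57.7% in those of genes tested. It was 56.5% in the cytosolic and 58.2% in the mitochondrial promoters, and the motif shares were not adjusted for it. The intervals cover counting error only. Searched in the 250 bases before the start alone, the YY1 core was in 5.88% of the mitochondrial promoters (interval 2.31% to 14.2%). It was in 0% of the cytosolic (0 of 50, interval up to 7.13%) and 1.59% of all. In both classes most promoters with the YY1 core thus lacked a match in those 250 bases, while 429 of 778 kept one over all promoters. In that window CCGGAAG was in 28% of the cytosolic, 23.5% of the mitochondrial and 7.05% of all promoters, the NRF1 core in 0%, 10.3% and 1.49%, the palindrome in 6%, 1.47% and 0.407%, TATAAA in 4%, 5.88% and 12.97%, and CCAAT in 24%, 35.3% and 34.5%.

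The median change of the 17 cytosolic genes with CCGGAAG was -0.22 and that of the 33 without it -0.024. After cyclic loess these medians were -0.050 and 0.12. In the mitochondrial class the medians were -0.12 for 24 genes with the motif and -0.055 for 44 without, or -0.087 and -0.0025 after cyclic loess. Cytosolic genes with a run of C and T bases at the start had a median of -0.099 (n = 13) and those without one -0.093 (n = 37). For CCAAT the mitochondrial medians were -0.0091 (n = 26) with it and -0.13 (n = 42) without, or -0.026 and -0.014 after cyclic loess. The cytosolic medians were -0.12 (n = 14) and -0.070 (n = 36). The other motifs were in few cytosolic genes, with medians of -0.47 (TATAAA, n = 5), -0.45 (palindrome, n = 5), -0.32 (NRF1 core, n = 2) and 0.76 (YY1 core, n = 2). The motifs were compared with the changes after the changes had been seen, and these medians are descriptions with no test.

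Taken as classes, cytosolic and mitochondrial genes had nearly the same median change, -0.096 and -0.10, where all genes had -0.0083. Changes were below 0 in 41 of 62 cytosolic (66.1%) and 47 of 77 mitochondrial genes (61.0%), against 51.1% of all genes. The class medians moved with the scaling of the arrays. The cytosolic median turned to 0.074 after cyclic loess, 0.056 after quantile normalisation and 0.11 with arrays centred and scaled, while that of all genes was 0.013, 0.0097 and 0.041. The mitochondrial median shrank to -0.027, -0.045 and -0.0058 under the same 3 scalings and kept its sign. Relative to the median change of genes in the same class of mean signal, the cytosolic median was 0.025 and the mitochondrial -0.033.

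**Figure D1:**
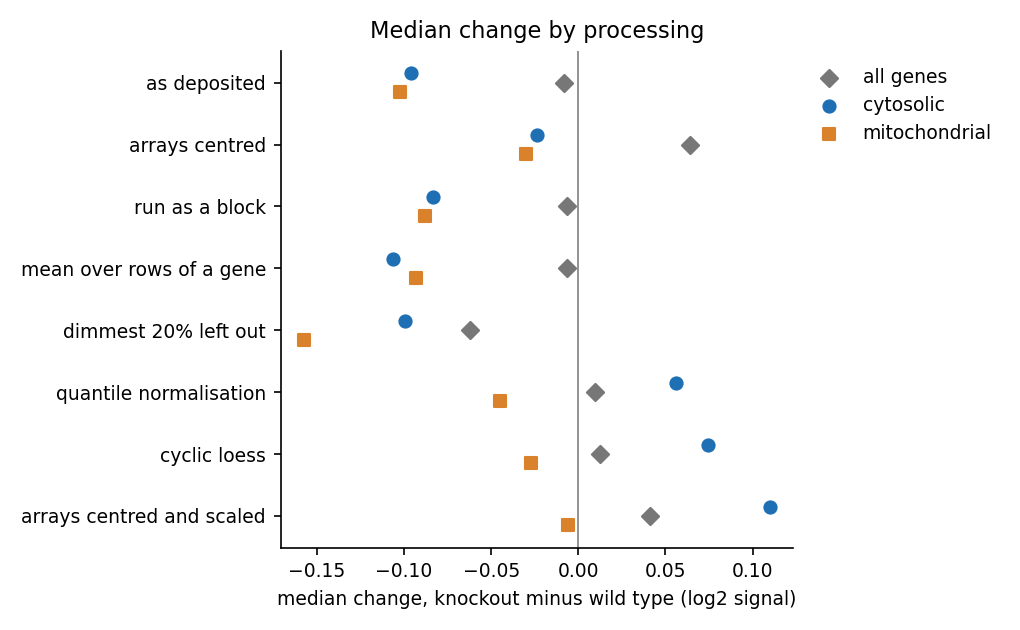
Median change of all genes, 62 cytosolic and 77 mitochondrial ribosomal protein genes (x axis, knockout minus wild type, log2 signal) under each processing (y axis). The cytosolic median lies at -0.096 as deposited and above 0 under the 3 lowest settings, and the mitochondrial median stays below 0 in all of those shown.

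The median levels of the classes were compared array by array. The cytosolic median was 5.82 in knockout 2, 5.90 in knockout 5, and 5.98, 5.91 and 5.996 in wild type 3, 4 and 6. The mitochondrial median was 5.22 and 5.21 in knockout and 5.48, 5.45 and 5.45 in wild type. The cytosolic minus the mitochondrial median was 0.60 and 0.69 in knockout and 0.499, 0.46 and 0.54 in wild type, higher in both knockout mice than in every wild-type mouse. The knockout mean exceeded the wild-type mean by 0.147, and the pooled standard deviation within groups was 0.0503. It was 0.104 within run 1 and 0.191 within run 2, 0.0834 with the rows of a gene averaged, 0.049 without the dimmest 20% of genes and 0.0961 without the paralogs and relatives. The gap of class medians and the nearly equal medians of the changes are different summaries, since the gene at the middle of a class is not the same on every array.

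Split by the subunit letter in the name, the median change was -0.22 for 24 cytosolic genes named for the small subunit and -0.047 for 38 named for the large. It was -0.16 for 29 mitochondrial genes named for the small and -0.055 for 48 named for the large subunit. Without the 9 paralogs and relatives and Mrps36, these medians were -0.20 (n = 20), -0.093 (n = 33), -0.17 (n = 28) and -0.055 (n = 48). Cyclic loess of all named genes gave -0.074, 0.11, -0.054 and -0.010 in the same order, and centring with scaling gave -0.016, 0.13, -0.010 and 0.026. The order of the subunits rested on knockout 2 in the cytosolic class, where the medians without that mouse were -0.0062 for the small and -0.033 for the large subunit. In the mitochondrial class they were -0.0044 and -0.0028 without knockout 2, and -0.038 and -0.036 without knockout 5, nearly equal in both cases. With rows averaged and relatives left out, the cytosolic order also turned, at -0.044 for the small and -0.11 for the large subunit.

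The knockout and wild-type values did not overlap in 22 cytosolic genes (35.5%) and 24 mitochondrial genes (31.2%), against 31.5% of all genes. Of the cytosolic ones 19 were lower and 3 higher in knockout, and of the mitochondrial ones 18 were lower and 6 higher. Over all genes 18.6% were lower and 13.0% higher, against 30.6% and 4.84% of the cytosolic and 23.4% and 7.79% of the mitochondrial genes.

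Among these genes the largest differences in the cytosolic small subunit belonged to Rps21, Rps9 and Rps19. Rps9, which helps shape the entry channel for messenger RNA, was at 6.02 and 5.70 in knockout and 7.50, 7.40 and 6.94 in wild type. Both knockout values lay far below wild type, and the change was -1.42 (SE 0.23, limma adjusted p = 0.0752), with -1.17 after cyclic loess. Its other row on the array went the same way, with -0.86. Rps19, whose human counterpart is the gene most often mutated in Diamond-Blackfan anaemia, was at 6.02 and 6.76 against 7.90, 7.91 and 7.22. Wild type 6 lay well below the other 2 wild-type mice, and the change was -1.28 (SE 0.366, adjusted p = 0.1997). Rps21 was at 3.30 in knockout 2 and 5.43 in knockout 5 versus 6.07, 5.92 and 5.70. Its change of -1.53 (SE 0.729, adjusted p = 0.399) was mostly that of knockout 2 in this row, its brightest. In the other row of Rps21 both knockout mice were low, at 4.78 and 4.67 against 5.34, 5.34 and 5.36 (change -0.63). Rps28, at the exit of the messenger RNA channel, was at 6.30 and 6.62 against 7.04 in all 3 wild-type mice, with a change of -0.58 (SE 0.109, adjusted p = 0.0959) that was -0.32 after cyclic loess and -0.25 under centring with scaling.

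**Figure D2:**
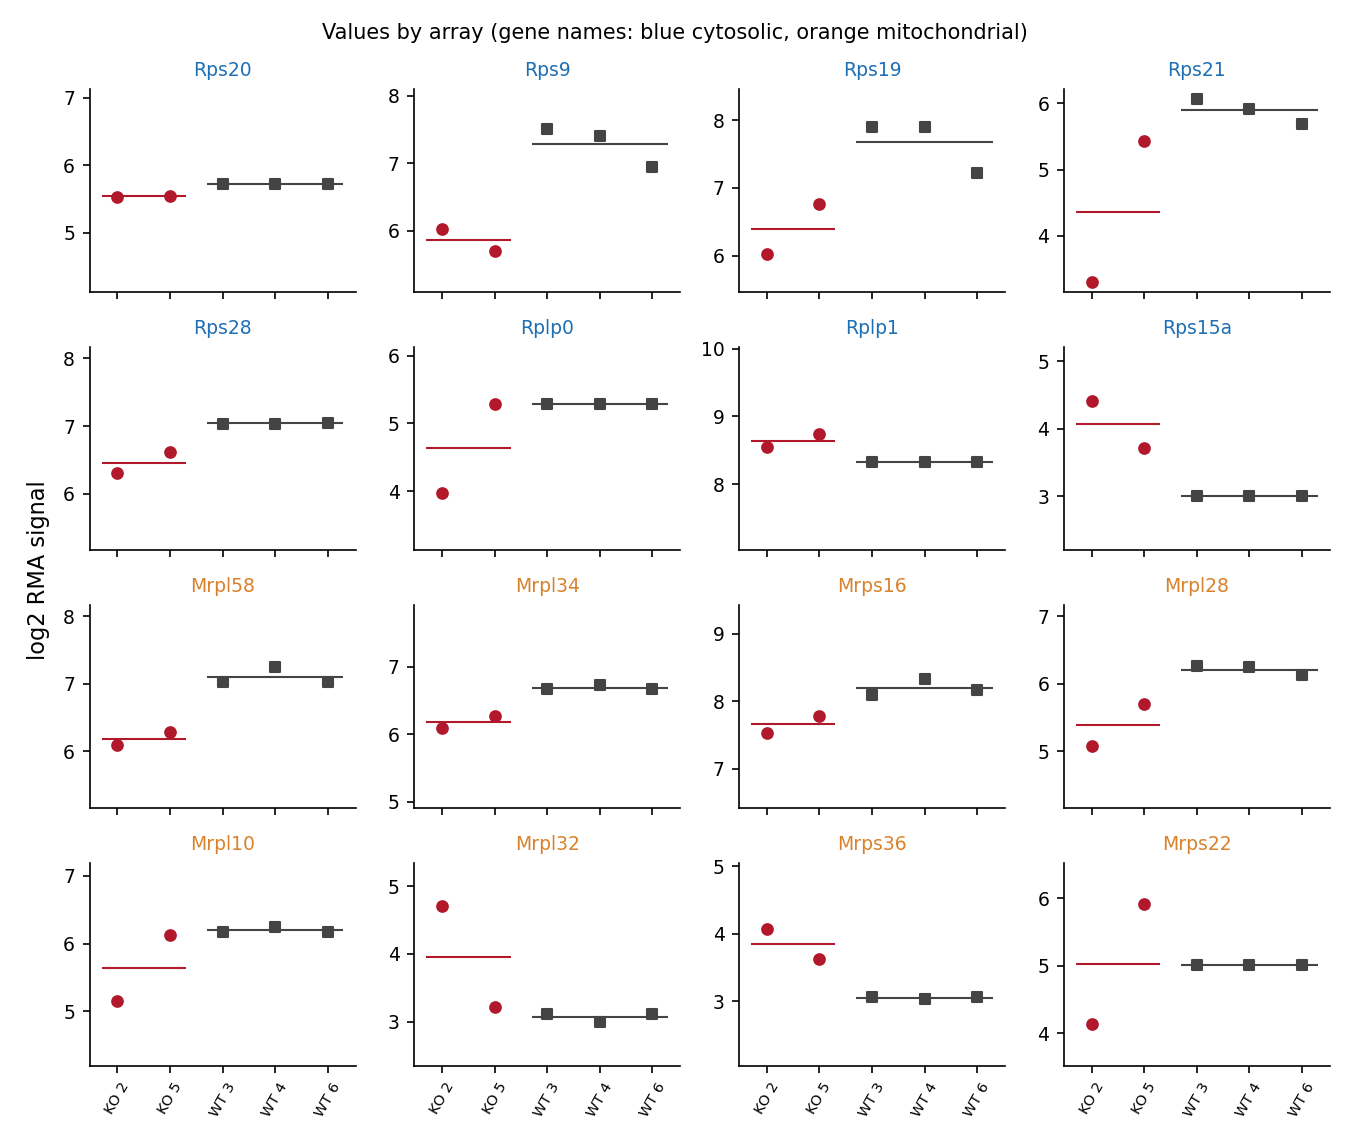
Log2 RMA signal (y axis) of 16 ribosomal protein genes on each array (x axis), with red points for the 2 knockout and grey squares for the 3 wild-type mice and lines at the group means. Rps9 and Rps19 lie lower in both knockout mice, Rps20 by only 0.18, and Mrps22 lies on opposite sides of wild type in the knockout mice.

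Of 6 measured genes listed for the messenger RNA channel and decoding site, Rps20 fell and 5 did not pass, with a median change of -0.33. That median was -0.086 after cyclic loess. Besides Rps9, Rps28 and Rps20, Rps2 was at -0.47 (adjusted p = 0.228) and at -0.13 after cyclic loess, Rps3 at 0.064 (adjusted p = 0.596) and Rps15 at 0.39 (adjusted p = 0.399), or 0.65 after cyclic loess. Rps15 had changes above 0 in 2 of its 3 rows. Its second brightest row was at 6.36 and 6.47 against 7.02, 6.67 and 6.67 (change -0.37), so the direction of Rps15 rests on the row. Of 8 measured genes whose human counterparts cause Diamond-Blackfan anaemia, 7 had changes below 0 and none passed in limma, with a median of -0.40, or -0.20 after cyclic loess.

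In the large subunit, 2 genes at the rim of the tunnel through which the new chain leaves had changes of like size and low p. Rpl19 was at 5.80 and 5.89 against 6.24, 6.38 and 6.24 (change -0.44, SE 0.066, adjusted p = 0.066). Rpl26, which also binds the message of the tumour suppressor p53, was at 5.53 and 5.72 against 6.06, 6.06 and 6.11 (change -0.45, SE 0.068, adjusted p = 0.0669). After cyclic loess Rpl19 was at -0.26 (adjusted p = 0.179) and Rpl26 at -0.29 (adjusted p = 0.0957). Of the 6 measured genes listed for the tunnel rim, none passed and 3 had changes below 0. The list took in Rpl24 (change 0.15), whose place at the rim is uncertain. Rpl23a, a docking site for factors that act on the new chain, was at 7.79 and 8.23 against 7.54, 7.79 and 7.79 (change 0.31, adjusted p = 0.399, and 0.68 after cyclic loess). Rpl28 was at 5.48 and 6.23 against 6.52 in each wild-type mouse (change -0.66, adjusted p = 0.32). Rpl37a was at 7.09 and 7.57 against 7.89 in all 3 wild-type mice, with a change of -0.56 (adjusted p = 0.205) that shrank to -0.20 under cyclic loess and -0.086 under centring with scaling.

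The stalk that recruits translation factors to the large subunit is made of Rplp0, Rplp1 and Rplp2 and sits on Rpl12, and these 4 genes did not move together. Rplp0 was at 3.98 in knockout 2 and at 5.29 in knockout 5 and every wild-type mouse in its brightest row. In its second row knockout 2 was highest and knockout 5 lowest, at 5.51 and 3.89 against 4.75, 4.72 and 4.38 (change 0.084). The pattern of Rplp0 thus rests on the row. Rplp1 was at 8.55 and 8.74 against 8.32 in each wild-type mouse, higher in both knockout mice (change 0.32, SE 0.066, adjusted p = 0.114), and the change was 0.75 after cyclic loess. Its second row went the other way, with -0.61, so the direction of Rplp1 rests on the row. Rplp2 was at -0.11 (SE 0.03, adjusted p = 0.174) and turned to 0.083 after cyclic loess, and Rpl12 was at 0.086 (adjusted p = 0.70). Rpl5, which with Rpl11 carries the smallest ribosomal RNA into the large subunit, was at -0.093 in its brightest row (adjusted p = 0.714), and 4 of its 5 rows had changes above 0. Of the 5 measured genes of that particle and its surveillance none passed in limma, with a median change of 0.0096.

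Rises with groups apart were few in the cytosolic class. Rps15a was at 4.42 and 3.71 in knockout versus 3.002 in each wild-type mouse (change 1.06, SE 0.238, adjusted p = 0.132). It had the lowest mean signal of the cytosolic genes and was in the lowest signal class, where the median change of all genes was 0.39. Rps6, the small subunit protein phosphorylated by the S6 kinases downstream of mTOR, was at 6.60 and 6.56 against 6.32, 5.66 and 6.32. Wild type 4 was low in this row, its brightest, and the change was 0.48 (SE 0.261, adjusted p = 0.399). The groups were apart in this row alone of its 8 rows. Among paralogs, Rpl7l1 was at 6.09 in knockout 2 and 5.17 on the other 4 arrays. Rps27l, a p53 target, was at 5.09 and 4.70 against 5.12, 5.57 and 5.12, and Rpl3l, the form of heart and skeletal muscle, was at 4.64 on every array but knockout 5, where it was at 4.44. Rpl10l and Rpl39l, expressed mainly in testis, had changes of -0.016 and 0.38, the latter from knockout 5 alone, and Rps4l was at -0.06.

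In the mitochondrial large subunit, Mrpl34 and Mrpl2 came closest to the threshold after Mrpl58. Mrpl34 was at 6.10 and 6.27 against 6.67, 6.73 and 6.67 (change -0.51, SE 0.065, adjusted p = 0.0534). Mrpl2, a core protein next to the site of peptide bond formation, was at 5.01 and 5.07 against 5.48, 5.36 and 5.36 (change -0.36, SE 0.054, adjusted p = 0.066). After cyclic loess these changes were -0.28 and -0.27. Mrpl28 was at 5.08 and 5.70 against 6.26, 6.24 and 6.12 (change -0.82, adjusted p = 0.172), and Mrpl4 at 5.53 and 5.83 versus 6.199 in each wild-type mouse (change -0.52, adjusted p = 0.10, and -0.35 after cyclic loess). Mrpl10, the stalk base protein, was at 5.15 in knockout 2 and 6.13 in knockout 5 versus 6.18, 6.24 and 6.18, so its change of -0.56 (adjusted p = 0.399) came almost wholly from knockout 2. Mrpl12, which binds Mrpl10 in the stalk, was at -0.22 (adjusted p = 0.287) and at 0.033 with arrays centred and scaled.

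In the mitochondrial small subunit, Mrps16, a gene mutated in human disorders of oxidative phosphorylation, was at 7.53 and 7.79 against 8.10, 8.33 and 8.17. The groups were apart, with a change of -0.54 (SE 0.12, adjusted p = 0.13) that became -0.15 under cyclic loess and -0.0076 under centring with scaling. Mrps35 was at 4.86 and 5.26 against 5.62, 5.59 and 5.50 (change -0.52, adjusted p = 0.191), and kept -0.41 after cyclic loess. Mrps36, now counted as a part of the 2-oxoglutarate dehydrogenase complex rather than of the ribosome, was at 4.07 and 3.63 against 3.06, 3.03 and 3.06. It was higher in both knockout mice, and the change was 0.80 (SE 0.15, adjusted p = 0.0960), with 0.48 after cyclic loess and 0.94 in its second row. The mean signal of Mrps36 was in the lowest signal class, where the median change of all genes was 0.39.

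Other mitochondrial genes were higher in both knockout mice by unequal amounts. Mrpl32, whose processing by a mitochondrial protease is needed for ribosome assembly, was at 4.71 in knockout 2 and 3.21 in knockout 5 versus 3.12, 2.99 and 3.12. Its change of 0.89 (SE 0.507, adjusted p = 0.399) was mostly that of knockout 2, and was 0.59 after cyclic loess. Mrpl32 too was in the lowest class of mean signal. Mrpl48 had 0.60, Mrpl1 0.46, Mrpl57 0.23 and Mrpl50 0.14, with adjusted p from 0.219 to 0.399. Mrps2, of the small subunit, was at 6.90 and 6.63 against 6.94, 7.16 and 6.99, a change of -0.27 (adjusted p = 0.399) that was 0.0093 after cyclic loess. The values of Mrps27, Mrps30, Mrpl20, Mrpl33, Mrpl41, Mrpl44 and Mrpl52 were identical on all 5 arrays.

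The 2 knockout mice differed from each other more than wild-type mice did. Over the 139 genes, the difference between knockout 2 and 5 had a standard deviation of 0.621, and that between wild-type pairs 0.155 to 0.182. Over all genes these values were 0.545 and 0.117 to 0.182. The median deviation from the wild-type mean was -0.12 in knockout 2 and -0.023 in knockout 5 for the cytosolic genes, and -0.038 and -0.0044 for the mitochondrial genes. Knockout 2 lay below the wild-type range in 34 of the 62 cytosolic genes and above it in 10, and knockout 5 in 24 and 16. For the 77 mitochondrial genes the counts were 35 and 19 in knockout 2, and 33 and 16 in knockout 5. Over all 19938 genes they were 8259 and 5717 in knockout 2, and 6214 and 6258 in knockout 5.

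**Figure D3:**
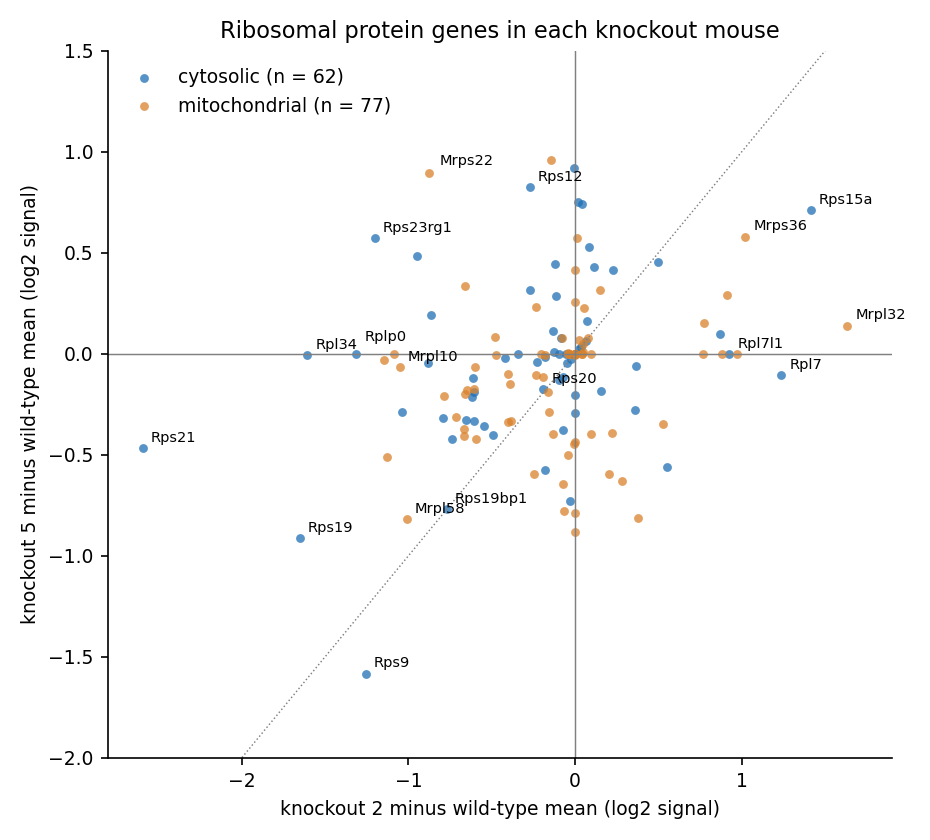
Deviation of each of the 139 genes from its wild-type mean in knockout 2 (x axis) and knockout 5 (y axis), in log2 signal, with blue points for cytosolic and orange for mitochondrial genes and a dotted line of equal deviation. In the brightest rows plotted, Rps9 and Rps19bp1 lie low in both mice, while Rpl34 and Rplp0 lie low in knockout 2 alone and Mrps22 on opposite sides.

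The knockout mice lay on opposite sides of the wild-type range in 8 cytosolic and 12 mitochondrial genes, 14.4% of the 139, near the 13.9% of all genes. Of the 12 mitochondrial genes, 9 belonged to the 29 genes of the mitochondrial small subunit, a share singled out after it was seen. Where the wild-type values are identical, any deviation lies outside their range. Mrps18b counted with deviations of only -0.076 in knockout 2 and 0.080 in knockout 5. Mrps22, mutated in human disorders of oxidative phosphorylation, was at 4.14 in knockout 2 and 5.91 in knockout 5 versus 5.02 in each wild-type mouse. Mrps18c was at 4.66 and 3.48 against 4.29 in each wild-type mouse, and Mrps10 at 5.28 and 6.28 against 5.89, 5.91 and 6.03. Among cytosolic genes, Rps23rg1, a relative of Rps23, was at 4.49 and 6.26 against 5.42, 5.79 and 5.86, Rpl30 was at 3.12 and 4.55 against 4.07 in each wild-type mouse, and Rpl21 at 7.44 and 6.33 against 6.86, 6.71 and 7.11. In Rpl34 knockout 2 was at 4.10 and knockout 5 at 5.70, within the wild-type values of 5.87, 5.56 and 5.70. Rpl7 was at 6.12 in knockout 2 and 4.78 in knockout 5 versus 5.001, 4.74 and 4.90. Mrpl37 was at 5.37 and 6.47 against 5.45, 5.55 and 5.55, and Mrpl55 and Mrpl14 were low in knockout 2 alone, at 5.99 and 4.41.

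Ribosomal protein genes have many processed copies in the genome, and the array holds several rows for many of them. The 62 cytosolic genes had 214 rows and the 77 mitochondrial genes 85. Of the 38 cytosolic genes with over 1 row, all rows had a change in the direction of the brightest in 20 and some did not in 18. Of the 8 mitochondrial genes with over 1 row these counts were 6 and 2. Rows of a gene can share probes with it and with its copies, and 12 rows repeated another row of their gene exactly on all 5 arrays, so rows are not independent measurements. What part of a signal comes from a copy cannot be told apart here, and the levels of these genes are uncertain for that reason.

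**Figure D4:**
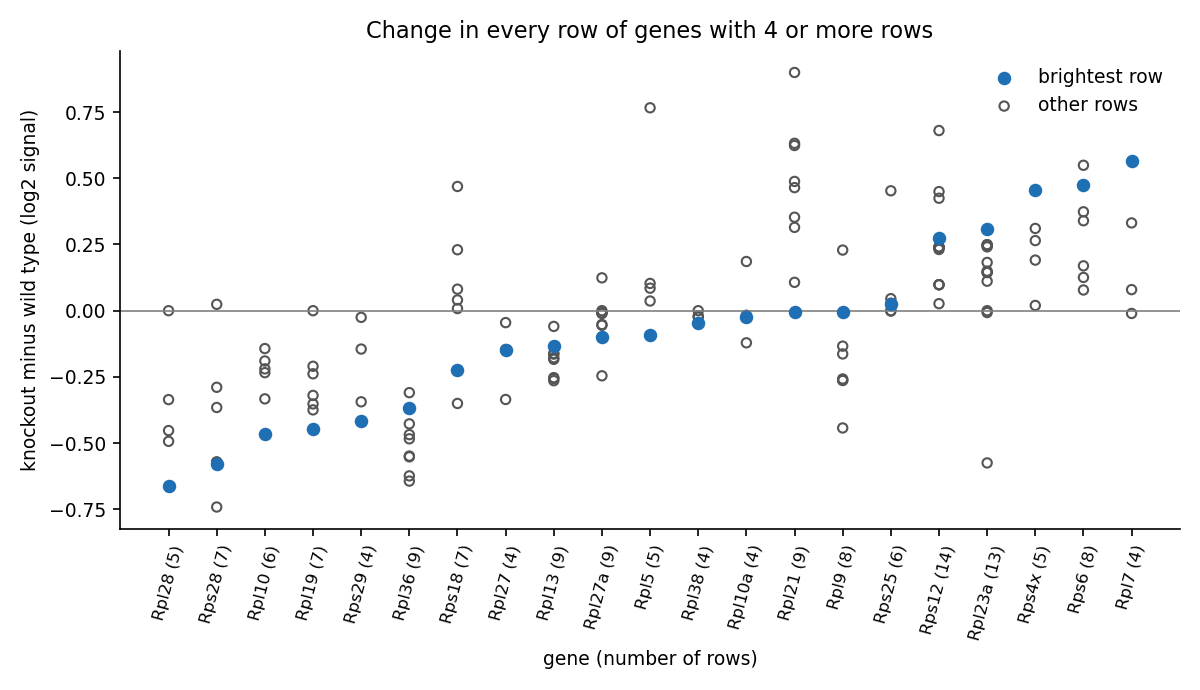
Change (y axis, knockout minus wild type, log2 signal) in every row of the genes with 4 or more rows (x axis, number of rows in brackets), with the brightest row filled in blue. All 9 rows of Rpl36 and Rpl13 lie below 0, all 14 rows of Rps12 (8 of them distinct) above 0, and the rows of Rps18 on both sides.

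Some genes kept their pattern over the arrays in most of their rows. Rps12 was highest in knockout 5 in 13 of 14 rows, though only 8 of its rows were distinct, and Rps4x in all 5. Their brightest rows read 5.81 in knockout 2 and 6.91 in knockout 5 versus 5.97, 6.05 and 6.23 for Rps12, and 6.02 and 6.94 against 5.99, 5.90 and 6.18 for Rps4x. Rpl36 was at 7.24 and 7.74 in its brightest row against 7.96, 7.82 and 7.79, a change of -0.37 (adjusted p = 0.399) that was -0.011 after cyclic loess. Rps6 was highest in knockout 5 in 7 of 8 rows, but in its brightest row, described above, knockout 2 was the highest, and knockout 2 was the lowest array in 4 rows. Knockout 2 was lowest in all 9 rows of Rpl36 and all 6 of Rpl10. Both knockout mice were below all wild-type mice in 6 of 7 rows of Rpl19 and of Rps28 and in 4 of 5 of Rpl28. Rpl21 was above 0 in 8 of 9 rows but at -0.0038 in its brightest, and Rps18 was at -0.23 in its brightest row with 5 of 7 rows above 0.

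Other parts of the translation machinery were read from lists drawn up with earlier results of these data known. Of 6 measured ribosomal proteins whose names the rule does not take in, Gadd45gip1, a protein of the mitochondrial large subunit also known as Crif1, fell and 5 did not pass. It was at 5.74 and 5.72 in knockout versus 6.18, 6.14 and 6.14 in wild type, with both knockout values below (change -0.42, SE 0.023, limma adjusted p = 0.0174), and -0.25 after cyclic loess (adjusted p = 0.201). Rpsa, a small subunit protein, was at 7.07 in knockout 5 and 6.51 on the other 4 arrays, and Dap3, of the mitochondrial small subunit, was at 5.27 and 4.54 against 4.25 in each wild-type mouse.

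Of 29 genes of mitochondrial translation and ribosome assembly 1 fell and 0 rose, with a median change of -0.019. This was Mtfmt, which formylates the initiator methionyl-tRNA of mitochondria, at 4.95 in both knockout mice against 5.49, 5.59 and 5.49 (change -0.58, SE 0.041, limma adjusted p = 0.0231). The 2 knockout values were identical, as were those of wild type 3 and 6, so this SE came from wild type 4 and the moderation in limma. After cyclic loess the change of Mtfmt was -0.49 (adjusted p = 0.0714). Of 35 cytosolic translation factors 1 fell and 0 rose, with a median of -0.14 and -0.083 after cyclic loess. Eif4ebp2, a repressor of the cap-binding factor that mTOR inactivates, was at 5.21 and 5.17 against 5.79, 5.82 and 5.79 (change -0.61, SE 0.024, limma adjusted p = 0.0138), and was at -0.48 after cyclic loess (adjusted p = 0.0816). When the run was fitted as a block Gadd45gip1, Mtfmt and Eif4ebp2 did not pass (adjusted p = 0.0528, 0.0676 and 0.0528), nor with any 1 wild-type mouse left out. Of 37 ribosome biogenesis genes none passed in limma, 22 had changes below 0 and 14 had groups that did not overlap, with a median of -0.047. These shares stand beside 3.73% called and 31.5% not overlapping over all genes.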

How the data were processed

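The deposited table holds log2 values of 35556 rows for 5 arrays. Per the submitters' processing notes, the authors made these log2 values with Affymetrix Expression Console and RMA, and the sources used here name no version or genome build. Rows were named from the platform annotation, and 21789 rows had 1 symbol, 1621 several and 12146 none. All 139 members matched the GRCm38.p6 gene table by identifier. The rows for 19938 genes, 1 per gene, were fitted with limma 3.58.1 in R 4.3.3 (lmFit, eBayes, no covariate, two-sided, Benjamini-Hochberg over all genes, threshold 0.05). The p-values rest on the differences among these mice and arrays, and the number of arrays limits the precision. Tested on simulated data for 2 against 3 arrays and 19938 genes, limma recovered 79% of genes changed by 2 log2 units. It recovered 50% of those changed by 1 log2 unit and made 8 false calls. Recovery in the deposited data was not tested. There, 39.1% of all genes had identical values in the wild-type mice. The difference between knockout 2 and 5 had a standard deviation of 0.545 over all genes, against at most 0.182 between wild-type pairs. Alternatives covered scaling, run, rows, filters, variance model, threshold and each array left out. Named were members past the threshold, the 6 largest rises and 6 largest falls with groups apart in each class, the 3 genes of highest and of lowest mean signal and the 5 differing most between knockout mice in each class, the role groups, up to 4 genes whose rows disagree, and members of the other translation lists past the threshold. Others were singled out after their values were seen. The members and lists were chosen with earlier results of these data known. Promoters came from RefSeq, with the first listed start of each gene.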

Additional observations from a re-analysis of the deposited data

How the results depend on the processing

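The 2 cytosolic and 1 mitochondrial calls were 0 and 0 with the run as a block, cyclic loess, quantile normalisation, or arrays centred and scaled, 1 and 2 with arrays centred, and 6 and 4 at an adjusted p under 0.1. Over all genes, limma made 0 calls with the block, cyclic loess and quantile normalisation, while 3829, 3919 and 3761 genes had an unadjusted p under 0.05. The mitochondrial count was 0 with eBayes trend and robust, and the cytosolic count 1 without paralogs and relatives. Leaving out 1 array gave 0 to 27 cytosolic and 0 to 36 mitochondrial calls: 0 without any 1 wild-type mouse, 19 and 27 without knockout 2, and 27 and 36 without knockout 5, where the lone knockout array was assumed to vary like the wild type. The cytosolic median change was 0.074 (cyclic loess), 0.056 (quantile), -0.024 (centred), 0.11 (centred and scaled), 0.025 (relative to genes of like signal), -0.15 (run 1), -0.015 (run 2) and -0.12 to -0.023 with 1 array left out. The mitochondrial median was -0.088 (block), -0.027, -0.045, -0.030 and -0.0058 (the same 4 scalings), -0.16 (dimmest 20% left out), -0.033 (relative to genes of like signal), -0.032 (run 1), 0 (run 2) and -0.13 to -0.0044 with 1 array left out. The gap of class medians was 0.209 (cyclic loess), 0.245 (centred and scaled), 0.0834 (rows averaged), 0.049 (dimmest 20% left out), 0.0961 (without relatives) and 0.103 to 0.191 with 1 array left out. The cause of these shifts was not tested. In the counts of values that follow, a change of 0 was never taken as reversed, as for Mrps30, which ranged from -0.32 to 0.072. For the 52 members the naming rule covers, 573 alternative values kept direction and side of the threshold, 23 lost it, 38 gained it and 34 reversed. Reversed values were 0.0093 and 0.11 (Mrps2, cyclic loess, centred and scaled), -0.0100 (Mrps22, quantile), 0.067, 0.076, 0.057 and 0.091 (Rpl10l) and 0.014, 0.019, 0.025 and 0.025 (Rpl38) and 0.14, 0.10, 0.013 and 0.19 (Rps4l) under cyclic loess, quantile, centring, and centring with scaling, 0.083, 0.047 and 0.14 (Rplp2, the same without centring alone), 0.12 (Rpl36, centred and scaled), and 0.18 (Rpl5) and -0.15 (Rplp1) with rows averaged. With 1 array left out, reversed members ranged -0.14 to 0.96 (Mrpl37), -0.81 to 0.38 (Mrps18c), -0.88 to 0.90 (Mrps22), -0.18 to 0.15 (Rpl10l), -0.11 to 0.29 (Rpl12), -0.018 to 0.067 (Rpl22), -0.063 to 0.37 (Rpl24), -0.95 to 0.48 (Rpl30), -0.17 to 0.041 (Rpl5), -0.10 to 1.24 (Rpl7), -1.20 to 0.57 (Rps23rg1) and -0.13 to 0.0094 (Rps4l). These reversed without knockout 5 (Mrpl37, Mrps18c, Mrps22, Rpl10l, Rpl12), knockout 2 (Rpl24, Rpl30, Rpl7, Rps23rg1, Rps4l), wild type 4 (Rpl10l, Rpl22) or wild type 6 (Rpl5). Of all 139 members, 20 changed sign under cyclic loess, 19 under quantile normalisation and 27 under centring with scaling. Comparisons relative to genes of like signal, without relatives (subunit medians too), or with 1-row genes only were chosen after seeing the data. Array weights were not run to a usable result, since their fit did not converge. No paired analysis was possible because the groups share no replicate numbers. The 5 arrays, with identical values on several, limit the precision.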
